A study of Mus musculus with 8 samples.

Results

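The genes described here are 37 antiviral interferon-stimulated genes, chosen by symbol from the 53379 genes listed for each library. They leave out the guanylate-binding and immunity-related GTPase families and the MHC genes, but include the dynamin-like GTPases Mx1 and Mx2. All 37 were listed once, and all 37 were among the 14991 genes tested. The study sequenced RNA from intestinal epithelial cells of the distal colon of C57BL/6 mice, shaken off the opened and washed colon. Mice carried floxed Rora alleles (RORaf/f) or lacked the nuclear receptor gene Rora in the intestinal epithelium (RORaΔIEC). Each genotype was sampled as a control and after chemical colitis from dextran sulfate sodium (DSS), which the mice drank at 2% (weight per volume) over 5 days before 3 further days on plain water. The 4 groups had 2 libraries each. The promoter that drives Cre, the age of the mice and any pooling of animals are not given in the sources used here, and nothing in the labels says that libraries came from separate animals, so p-values measure only the spread between these libraries.

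Type I interferons (alpha and beta) bind the receptor of Ifnar1 and Ifnar2 and, through the kinases Jak1 and Tyk2, activate the complex ISGF3, which holds the factors STAT2 and IRF9. ISGF3 binds a DNA motif called the interferon-stimulated response element (ISRE) and switches on genes that sense viral RNA, degrade it, block its translation or restrict virus release. Type III interferons (lambda) use another receptor, of Ifnlr1 and Il10rb, but the same factors, and intestinal epithelium is known for responding to them. Interferon gamma acts mainly at another motif, GAS, and also raises many of these genes. The label "type I" therefore names a gene set and not the ligand that acted.

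Total expected counts per library ran from 15971642 to 20418466. Between the 2 libraries of a group, counts differed by more than counting error in all 4 groups, the chi-square divided by its degrees of freedom running from 1.3 to 5.09, and the RORaΔIEC DSS pair differed the most. The spread beyond counting error, as edgeR's common biological coefficient of variation, was 3.487%. Whether it includes a spread between animals cannot be told from the labels. Rora was counted few times: 12 and 6 in the RORaf/f controls, 4 and 3 in the RORaΔIEC controls, 16 and 14 in RORaf/f after DSS and 8 and 5 in RORaΔIEC after DSS. The libraries labelled RORaΔIEC were lower in both settings, with a log2 change of -1.10 ± 0.58 (SE) in controls (adjusted p = 0.238) and -1.24 ± 0.45 after DSS (adjusted p = 0.0425). General epithelial markers summed to between 19830 and 23440 CPM (counts scaled to a common library size after TMM normalisation) in all 8 libraries. Markers of colonocytes were lower after DSS, from between 10400 and 10900 CPM in controls to 8099 and 7983 in RORaf/f and 6634 and 6437 in RORaΔIEC. Those of goblet cells went from between 16720 and 17420 CPM to 10150 and 9871, and to 8058 and 8124. Of 10 colonocyte markers, 6 were lower in RORaΔIEC controls and 7 after DSS, where 6.22% and 17.7% of all genes were. The part of these marker changes in the results below was not tested. Leukocyte markers summed to 15.9 to 17.3 CPM in controls, 28.0 and 32.1 in RORaf/f after DSS, and 52.2 and 55.1 in RORaΔIEC after DSS.

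The ISRE is the sequence feature these genes are best known for. Promoters from RefSeq (GRCm38.p6, 300 bases from 250 before the gene's start) were matched for 27 of the 37 genes. The ISRE core was searched as GAAANNGAAA on either strand, where it reads TTTCNNTTTC on the other, with overlapping matches counted. It was found in 13 of the 27 genes (48.15%), against 1079 of all 27025 genes in the table (3.993%). The GAS letters TTCNNNGAA were in 5 of the 27 (18.52%), against 9.554% of all genes. The matches that lie before the start are shown for 10 genes, as examples of a feature found in only part of the set. Each runs 5′ to 3′ on the gene's strand, with every core in capitals.
Isg15: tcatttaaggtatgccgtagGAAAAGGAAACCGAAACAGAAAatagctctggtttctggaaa
Ifit1: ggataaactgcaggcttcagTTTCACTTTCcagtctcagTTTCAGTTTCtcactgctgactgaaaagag
Ifit3: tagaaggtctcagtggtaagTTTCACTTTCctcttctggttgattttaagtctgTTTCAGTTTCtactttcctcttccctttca
Ifit3b: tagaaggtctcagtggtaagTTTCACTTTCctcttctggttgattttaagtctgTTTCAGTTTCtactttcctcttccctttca
Oas1a: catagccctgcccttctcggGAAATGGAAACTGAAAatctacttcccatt
Oas1g: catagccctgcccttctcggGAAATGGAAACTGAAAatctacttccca
Oas3: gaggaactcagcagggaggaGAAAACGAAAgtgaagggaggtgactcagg
Bst2: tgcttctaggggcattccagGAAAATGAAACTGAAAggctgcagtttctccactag
Rsad2: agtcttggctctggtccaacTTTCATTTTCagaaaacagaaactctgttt
Stat2: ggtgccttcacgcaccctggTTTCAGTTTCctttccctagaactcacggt

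On GRCm38.p6, the stretches are chr4:156200855-156200916 (minus strand), chr19:34640765-34640833 (plus), chr19:34583353-34583436 (plus), chr19:34607749-34607832 (plus), chr5:120907516-120907565 (minus), chr5:120887604-120887651 (minus), chr5:120777705-120777754 (minus), chr8:71537567-71537622 (minus), chr12:26456543-26456592 (minus) and chr10:128270256-128270305 (plus). Isg15 has 3 overlapping cores in a row, the last beginning 66 bases before the start. Ifit1 has 2 separate cores, and Ifit3 and Ifit3b carry the same stretch of letters. Oas1a and Oas1g likewise share the stretch around their cores, which begins its last match 14 and 12 bases before the start. Those pairs are close paralogs, and reads that fit both were divided between them by the authors' counting. In Ddx58, Eif2ak2 and Ifih1 the core lies 2, 18 and 32 bases after the start and is not shown. The 14 matched genes without these letters in the window include Ifit2, Irf7, Oasl1 and Oasl2, and no match says only that the letters are not in this window.

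Among genes with a core before or after the start, 10 of 13 were higher after DSS in RORaf/f and 11 of 13 in RORaΔIEC (adjusted p under 0.05, edgeR), where 18.9% and 21.7% of all genes tested were higher. Among the 14 genes without one, 8 and 9 were higher. In the comparison of genotypes the order turned: 3 of 13 genes with a core and 7 of 14 without it were higher in RORaΔIEC controls, and 7 of 13 and 9 of 14 after DSS, where 9.19% of all genes were higher in controls and 21.3% after DSS. These counts describe the sets and were not tested against each other.

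Per transcript length, the members spanned a wide range of levels. Averaged over the 8 libraries, Lgals3bp, a secreted glycoprotein that binds galectins, was highest at 141 TPM, a unit that scales each library's reads by transcript length and depth. Ifi27 followed at 69.1 TPM, Oas1a at 59.0, Irf7 at 51.5 and Zbp1 at 43.2. At the low end were Ifi44 at 1.90 TPM, Ifit3b at 1.81, Rsad2 at 1.55 and Mx2 at 0.991. In C57BL/6 mice both Mx genes carry defects, so their transcripts are known not to give a working protein. The mean level in CPM was highest in RORaΔIEC after DSS for 32 of the 37 members and lowest in the RORaf/f controls for 25. No share over all genes was taken for these counts, so they describe the members only.

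**Figure D1:**
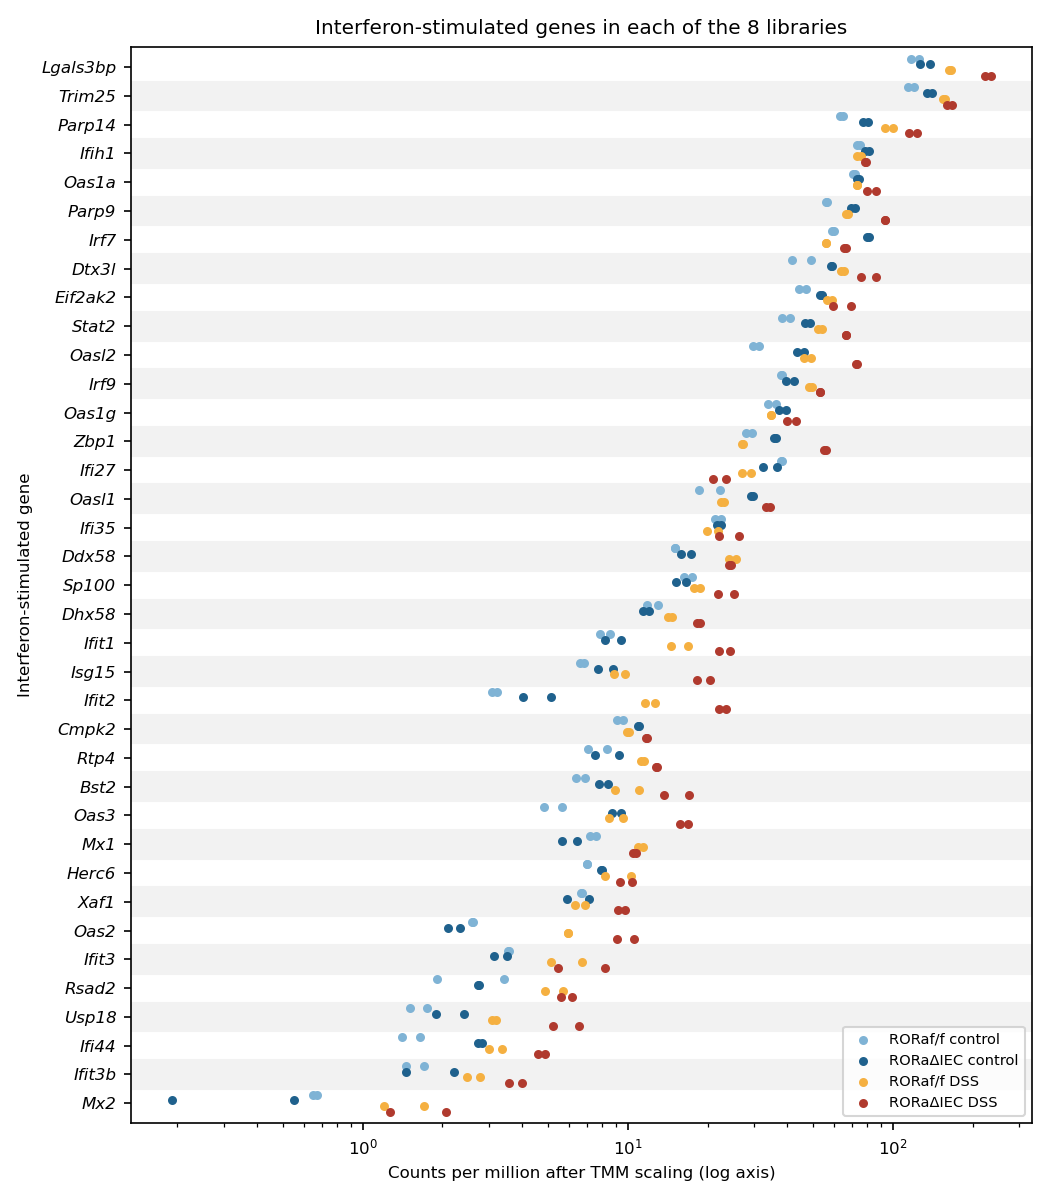
Level of each of the 37 interferon-stimulated genes in each of the 8 libraries, in CPM on a log axis, with genes ordered by mean level and 1 point per library coloured by group. For 32 genes the mean of the RORaΔIEC DSS pair (red) is the highest of the 4, and for Ifi27 it is the lowest.

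In control mice, 13 of 37 members (35.1%) were higher in RORaΔIEC than in RORaf/f at an adjusted p under 0.05 (edgeR quasi-likelihood test with Benjamini-Hochberg adjustment over all tested genes), where 9.19% of all genes were higher. No member was lower with edgeR or DESeq2, where 6.22% of all genes were, and 1 (Mx1) was lower at an unadjusted p under 0.05. The members' median log2 change was 0.18, against 0.01 over all genes. The genes that rose were Ifi44, Oas3, Oasl2, Ifit2, Oasl1, Irf7, Dtx3l, Parp9, Zbp1, Parp14, Stat2, Trim25 and Eif2ak2, and their changes were modest, with 2 of 13 at 1.5-fold or more and none at 2-fold. Irf7, Oas3, Oasl1, Oasl2 and Parp9 passed under every alternative run. Without RORaΔIEC control replicate 1, 6 of the 13 remained, and the calls of Dtx3l, Eif2ak2, Ifi44, Ifit2, Parp14, Stat2 and Trim25 were lost at log2 values from 0.20 to 0.87. Without RORaf/f control replicate 1, 7 remained, with the same losses except Parp14, and 10 remained without either second control library. Length offsets ended the calls of Eif2ak2, Ifi44, Ifit2, Stat2 and Zbp1. The summed leukocyte markers of the pairs overlapped (16.4 and 17.3 CPM against 15.9 and 17.3), with 0 of 6 markers called, 0 at an unadjusted p under 0.05 and 0 with DESeq2. Fibroblast markers summed to 10.9 and 11.3 CPM in RORaf/f against 15.8 and 17.0 in RORaΔIEC, with 2 of 5 tested markers higher. B and plasma cell markers summed to 252.6 and 250.9 CPM against 299.7 and 298.5. Of the 6 tested, 1 was higher and 0 lower, with a median log2 change of -0.56. General epithelial markers summed to 20880 and 20910 CPM against 23250 and 23440, with 5 of 10 higher and 0 lower. The part of any of these lists in the result was not tested.

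After DSS, 22 of 37 members (59.5%) were higher in RORaΔIEC than in RORaf/f, where 21.3% of all genes were higher, and 1 (Ifi27) was lower, where 17.7% were. The median log2 change of the members was 0.32, against -0.01 over all genes. Isg15 (2.07-fold), Zbp1 (2.05-fold), Usp18 (1.88-fold), Ifit2 (1.87-fold), Oas3 (1.81-fold), Oas2 (1.65-fold), Bst2 (1.54-fold) and Oasl2 (1.53-fold) led the list. Of the 13 members called in controls, 11 were also called here, all but Trim25 and Eif2ak2. The libraries compared were separate, but all 8 libraries shared 1 fit and its estimate of the spread. The share over all genes called in both settings was not taken. Oas1a lost its call without any 1 of 3 DSS libraries and Ifi44 without either of 2, while 15 of the 23 calls held under every alternative run. DESeq2 did not call Dhx58, Ifi44, Oas1a, Oas1g or Xaf1. Markers of several other cell types moved with this comparison. Neutrophil markers summed to 20.7 and 21.3 CPM in RORaf/f against 283 and 300.5 in RORaΔIEC (10 of 10 higher), and macrophage and monocyte markers to 76.4 and 75.7 against 163 and 172 (7 of 11 tested higher). Fibroblast markers summed to 12.0 and 12.7 CPM against 23.2 and 22.9 (5 of 5 tested higher), and 7 of 10 colonocyte markers were lower. B and plasma cell markers summed to 245.3 and 253.5 CPM against 217.6 and 222.5 (3 of 6 tested lower and 0 higher, with 1 lower by DESeq2). Of the 5 tested T and NK cell markers, 0 were called in either direction. No marker of these lists was at 0 in every library. Myeloid cells are known to express many interferon-stimulated genes, and the part of any of these cells in the members' change was not tested. In bulk RNA, a change in the share of cells of a type and a change in RNA per cell cannot be told apart.

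DSS itself raised most members in both genotypes. In RORaf/f, 25 of 37 (67.6%) were higher after DSS than in controls, where 18.9% of all genes were higher, and 1 (Ifi27) was lower, where 18.3% were. In RORaΔIEC, 29 of 37 (78.4%) were higher against 21.7% of all genes, and 2 (Ifi27 and Irf7) were lower against 19.8%. The median log2 change was 0.44 in RORaf/f and 0.59 in RORaΔIEC, against -0.01 and 0.00 over all genes. The same 24 members were higher in both genotypes, which share no library in these comparisons but share 1 fit and its estimate of the spread. Changes of 2-fold or more were called for 4 members in RORaf/f and 9 in RORaΔIEC. Shares over all genes were not taken for calls in both genotypes or for 2-fold changes. Neutrophil markers rose with DSS in both genotypes, from at most 0.951 CPM in a control library to the values given above, and leukocyte markers rose in 5 of 6 genes in each. Their part in the DSS response of the members was not tested. Each comparison of genotypes shares libraries with each comparison of DSS with control, so their values are given side by side below without a measure of likeness.

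**Figure D2:**
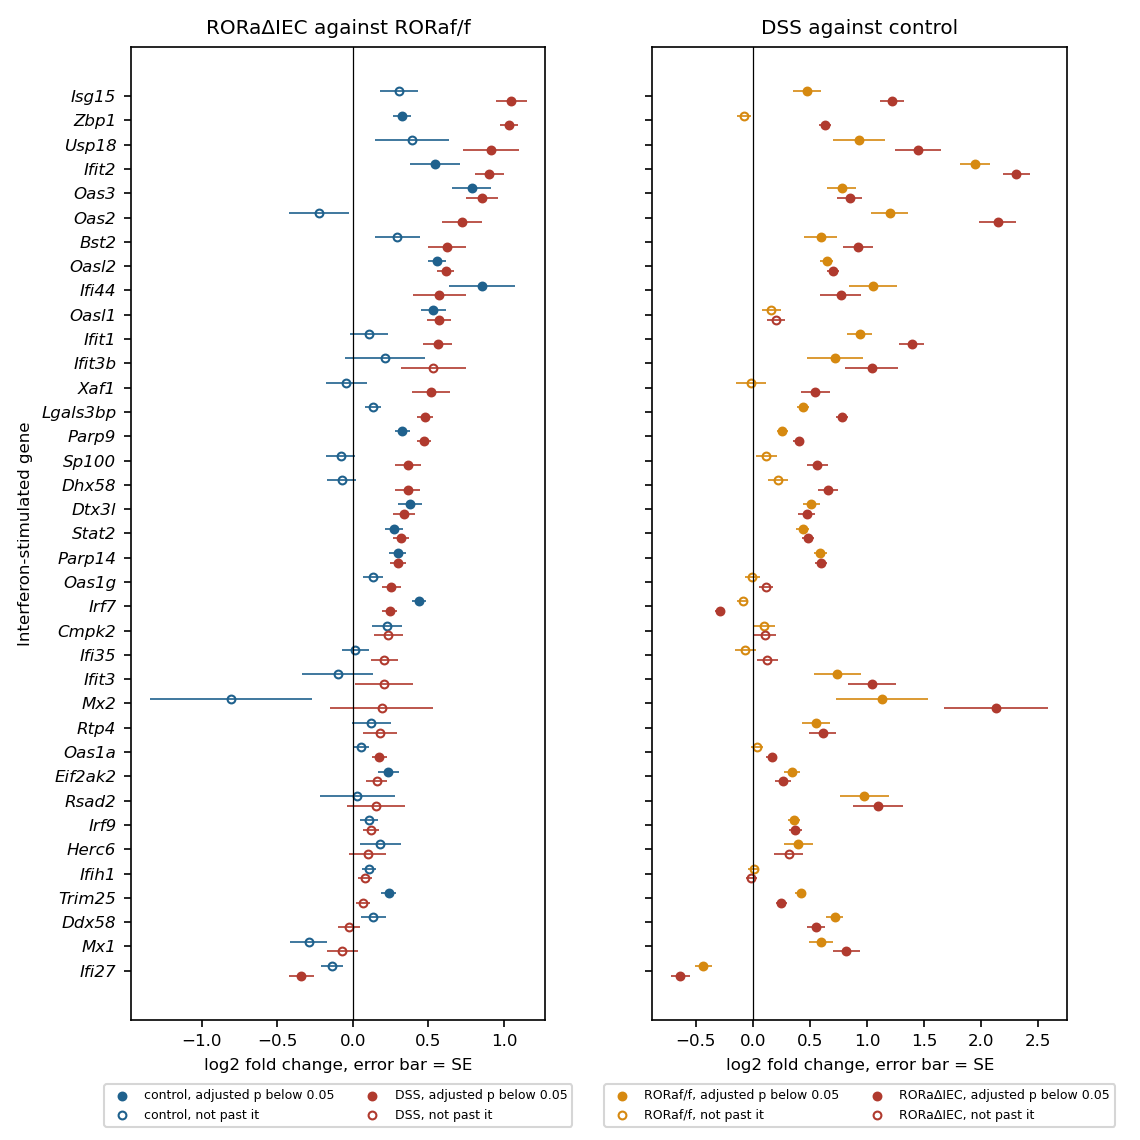
Log2 fold change of each member with its standard error as a bar: left, RORaΔIEC against RORaf/f in controls (blue) and after DSS (red); right, DSS against control in RORaf/f (orange) and RORaΔIEC (red). Filled points passed an adjusted p of 0.05, which 13 and 22 members did upwards on the left and 25 and 29 on the right. Ifi27 lay below 0 in all 4 comparisons and is the member that passed downwards in 3 of them.

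Sensors of foreign nucleic acid were the first role. Zbp1, which binds left-handed double-stranded nucleic acid and can start necroptosis, stood at 28.0 and 29.3 in the RORaf/f controls, 35.5 and 36.2 in the RORaΔIEC controls, 27.3 and 27.0 in RORaf/f after DSS and 55.1 and 56.0 in RORaΔIEC after DSS, in CPM. The RORaΔIEC DSS pair lay far above the other 6 libraries, and the RORaf/f DSS pair lay just below its controls. Zbp1 was higher in RORaΔIEC by log2 0.32 ± 0.06, adjusted p = 0.00192 in controls and by log2 1.03 ± 0.06, adjusted p = 5.8e-09 after DSS. Ddx58 (RIG-I), which recognises short viral RNA, gave 15.1 and 15.1 in the RORaf/f controls, 17.3 and 15.8 in the RORaΔIEC controls, 25.6 and 24.0 in RORaf/f after DSS and 24.2 and 24.5 in RORaΔIEC after DSS, in CPM. Both genotypes rose after DSS without overlap, 1.64-fold in RORaf/f and 1.47-fold in RORaΔIEC (adjusted p = 7.06e-06 and 5.03e-05), while the genotypes after DSS overlapped in level. Dhx58 (LGP2), a regulator of the other two RIG-I-like sensors, gave 11.8 and 13.0 in the RORaf/f controls, 12.1 and 11.4 in the RORaΔIEC controls, 14.2 and 14.7 in RORaf/f after DSS and 18.3 and 18.8 in RORaΔIEC after DSS, in CPM. It was 1.28-fold higher in RORaΔIEC after DSS (adjusted p = 0.00363) and rose 1.58-fold with DSS in RORaΔIEC. Eif2ak2 (PKR), the kinase that stops translation on double-stranded RNA, gave 44.1 and 47.2 in the RORaf/f controls, 54.1 and 53.3 in the RORaΔIEC controls, 59.1 and 56.6 in RORaf/f after DSS and 69.5 and 59.5 in RORaΔIEC after DSS, in CPM. Its rise in RORaΔIEC controls (log2 0.23 ± 0.07, adjusted p = 0.0389) was lost without any 1 of 6 libraries and with DESeq2. Ifih1 (MDA5), the sensor of long RNA, stayed between 73.4 and 81.5 CPM in all 8 libraries and passed no test.

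The 3 transcription factors of the response moved unlike each other. Irf7, the factor that amplifies interferon production, gave 59.0 and 59.9 in the RORaf/f controls, 81.1 and 80.2 in the RORaΔIEC controls, 55.9 and 55.8 in RORaf/f after DSS and 65.4 and 66.7 in RORaΔIEC after DSS, in CPM. The RORaΔIEC controls were the highest libraries, and Irf7 fell with DSS in RORaΔIEC (log2 -0.29 ± 0.05, adjusted p = 0.000184). RORaΔIEC exceeded RORaf/f by log2 0.44 ± 0.05, adjusted p = 2.34e-05 in controls and by log2 0.24 ± 0.05, adjusted p = 0.00124 after DSS. Stat2, the ISGF3 subunit specific to type I and III signalling, gave 38.0 and 40.8 in the RORaf/f controls, 48.5 and 46.6 in the RORaΔIEC controls, 54.3 and 52.3 in RORaf/f after DSS and 66.5 and 66.3 in RORaΔIEC after DSS, in CPM, a stepwise order of 4 groups with no overlap between the pairs compared. Stat2 was 1.21-fold higher in RORaΔIEC controls and 1.25-fold higher after DSS, and both calls were lost when the transcript lengths estimated for each library were used as offsets. Irf9, the DNA-binding subunit of ISGF3, ran from 38.0 to 53.1 CPM. DSS raised it 1.28-fold in RORaf/f and 1.29-fold in RORaΔIEC (adjusted p = 0.000181 and 8.29e-05), and neither comparison of genotypes passed.

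The oligoadenylate synthetases make the 2'-5' oligoadenylates which activate RNase L, and the related Oasl1 is known to lack that activity. All 6 genes of the family were higher in RORaΔIEC after DSS with edgeR, and 4 with DESeq2, which did not call Oas1a or Oas1g, where 21.3% of all genes were higher with edgeR. In controls 3 of 6 were higher, against 9.19% of all genes. Oas1a, Oas1g, Oas2 and Oas3 sit in a cluster on chromosome 5 (for example Oas3 at chr5:120753098-120777661 and Oas2 at chr5:120730333-120749853, mm10, minus strand), with Oasl1 and Oasl2 in a separate pair. Oas3 gave 5.66 and 4.82 in the RORaf/f controls, 9.40 and 8.75 in the RORaΔIEC controls, 9.55 and 8.48 in RORaf/f after DSS and 16.9 and 15.7 in RORaΔIEC after DSS, in CPM, and was 1.73-fold higher in RORaΔIEC controls (log2 0.79 ± 0.13, adjusted p = 0.000803) and 1.81-fold higher after DSS (log2 0.86 ± 0.11, adjusted p = 1.89e-05). The RORaΔIEC controls and the RORaf/f DSS libraries overlapped. Oasl2, an OAS-like protein with ubiquitin-like domains, gave 31.2 and 29.8 in the RORaf/f controls, 43.5 and 46.3 in the RORaΔIEC controls, 49.0 and 46.4 in RORaf/f after DSS and 73.4 and 72.5 in RORaΔIEC after DSS, in CPM. Its difference between genotypes was log2 0.56 ± 0.06, adjusted p = 2.9e-05 in controls and log2 0.61 ± 0.05, adjusted p = 6.83e-07 after DSS, and DSS raised it by 1.56-fold and 1.62-fold. Oasl1, known as a translational brake on Irf7, gave 18.5 and 22.4 in the RORaf/f controls, 29.7 and 29.1 in the RORaΔIEC controls, 23.1 and 22.4 in RORaf/f after DSS and 33.4 and 34.3 in RORaΔIEC after DSS, in CPM. It was 1.45-fold and 1.49-fold higher in RORaΔIEC (adjusted p = 0.000564 in controls and 5.98e-05 after DSS), and neither DSS comparison passed. Oas2 gave 2.60 and 2.58 in the RORaf/f controls, 2.10 and 2.33 in the RORaΔIEC controls, 5.95 and 5.95 in RORaf/f after DSS and 9.09 and 10.5 in RORaΔIEC after DSS, in CPM. Its controls did not pass between genotypes (log2 -0.23), and after DSS RORaΔIEC was higher by log2 0.72 ± 0.13, adjusted p = 0.000601. The paralogs Oas1a and Oas1g changed least of the 6: after DSS RORaΔIEC was 1.13-fold higher for Oas1a (79.6 and 86.2 against 73.4 and 73.4 CPM, adjusted p = 0.0145) and 1.19-fold for Oas1g (39.8 and 43.1 against 34.8 and 34.8 CPM, adjusted p = 0.00595).

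The IFIT family, whose proteins bind the end of viral RNA and block its translation, lies side by side on chromosome 19, from Ifit2 at chr19:34550694-34576419 to Ifit1 at chr19:34640871-34650009 (mm10, plus strand). All 4 rose after DSS in both genotypes. Ifit2 had the steepest DSS response of the set, with 3.20 and 3.08 in the RORaf/f controls, 5.15 and 4.04 in the RORaΔIEC controls, 11.7 and 12.7 in RORaf/f after DSS and 23.5 and 22.0 in RORaΔIEC after DSS, in CPM. This was 3.86-fold in RORaf/f (log2 1.95 ± 0.13, adjusted p = 7.19e-08) and 4.96-fold in RORaΔIEC (log2 2.31 ± 0.12, adjusted p = 1.12e-09). The pairs stood in 4 separate steps, and the genotypes differed by log2 0.54 ± 0.17, adjusted p = 0.0394 in controls and by log2 0.90 ± 0.10, adjusted p = 4.26e-06 after DSS. The difference in controls was lost without any 1 of 5 libraries, with DESeq2 and with length offsets. Ifit1 gave 7.86 and 8.57 in the RORaf/f controls, 8.20 and 9.43 in the RORaΔIEC controls, 16.8 and 14.5 in RORaf/f after DSS and 22.0 and 24.2 in RORaΔIEC after DSS, in CPM. It rose 1.91-fold with DSS in RORaf/f and 2.62-fold in RORaΔIEC, and after DSS was 1.48-fold higher in RORaΔIEC (adjusted p = 0.000306). Ifit3 gave 3.55 and 3.53 in the RORaf/f controls, 3.50 and 3.12 in the RORaΔIEC controls, 6.73 and 5.12 in RORaf/f after DSS and 8.23 and 5.44 in RORaΔIEC after DSS, in CPM, and its paralog Ifit3b 1.70 and 1.46 in the RORaf/f controls, 1.46 and 2.20 in the RORaΔIEC controls, 2.46 and 2.77 in RORaf/f after DSS and 3.57 and 4.01 in RORaΔIEC after DSS. With DSS, Ifit3 rose 1.67-fold and 2.06-fold and Ifit3b 1.65-fold and 2.06-fold (adjusted p = 0.0127, 0.00116, 0.033 and 0.00222). Their calls in RORaf/f were lost without any 1 of 3 libraries for Ifit3 and any 1 of 4 for Ifit3b, which also lost it with DESeq2 and with length offsets.

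Isg15, the ubiquitin-like protein joined to other proteins after interferon, gave 6.61 and 6.84 in the RORaf/f controls, 7.75 and 8.81 in the RORaΔIEC controls, 8.89 and 9.77 in RORaf/f after DSS and 18.2 and 20.4 in RORaΔIEC after DSS, in CPM. The RORaΔIEC DSS pair was above every other library, and exceeded RORaf/f after DSS by log2 1.05 ± 0.10, adjusted p = 1.86e-06. In controls the difference did not pass (log2 0.30 ± 0.12, adjusted p = 0.125). The rise with DSS in RORaf/f (log2 0.47 ± 0.12, adjusted p = 0.00676) was lost without RORaf/f DSS replicate 2, without RORaf/f control replicate 1 and with DESeq2. Usp18, the protease that removes ISG15 and also dampens the receptor, gave 1.75 and 1.51 in the RORaf/f controls, 2.42 and 1.90 in the RORaΔIEC controls, 3.06 and 3.18 in RORaf/f after DSS and 5.24 and 6.52 in RORaΔIEC after DSS, in CPM, from 27 to 114 counts per library. It rose 1.90-fold with DSS in RORaf/f and 2.73-fold in RORaΔIEC, and after DSS was higher in RORaΔIEC by log2 0.91 ± 0.18, adjusted p = 0.0013. Trim25, the ubiquitin ligase that helps RIG-I, gave 114 and 121 in the RORaf/f controls, 141 and 135 in the RORaΔIEC controls, 158 and 155 in RORaf/f after DSS and 168 and 160.2 in RORaΔIEC after DSS, in CPM. Its increase in RORaΔIEC controls (log2 0.24 ± 0.05, adjusted p = 0.00422) had no counterpart past the threshold after DSS (log2 0.07 ± 0.05). Herc6, the mouse ligase for ISG15, ran from 7.0 to 10.4 CPM and rose with DSS in RORaf/f (1.32-fold, adjusted p = 0.0259), a call lost without any 1 of 3 libraries, with DESeq2 and with length offsets. In RORaΔIEC its DSS change did not pass (log2 0.31, adjusted p = 0.0639), but did with length offsets (log2 0.60, adjusted p = 0.0136) and without either RORaf/f DSS library.

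Dtx3l and Parp9, a ubiquitin ligase and its ADP-ribosylation partner, are neighbours on chromosome 16 (chr16:35926511-35939151, minus strand, and chr16:35938470-35972605, plus strand, mm10) with Parp14 next to them. Their exons share 458 bases on opposite strands, and since the strand setting of the counting is not given in the sources used here, part of their reads cannot be assigned to one or the other with certainty. Dtx3l gave 41.7 and 49.0 in the RORaf/f controls, 58.6 and 58.8 in the RORaΔIEC controls, 65.3 and 63.6 in RORaf/f after DSS and 86.8 and 76.1 in RORaΔIEC after DSS, in CPM. Parp9 gave 56.4 and 56.1 in the RORaf/f controls, 69.5 and 71.7 in the RORaΔIEC controls, 66.6 and 68.0 in RORaf/f after DSS and 93.1 and 93.5 in RORaΔIEC after DSS, in CPM, with RORaΔIEC higher by log2 0.33 ± 0.05, adjusted p = 0.000388 in controls and by log2 0.47 ± 0.05, adjusted p = 2.19e-06 after DSS. Parp14 gave 63.3 and 65.1 in the RORaf/f controls, 80.6 and 77.0 in the RORaΔIEC controls, 99.8 and 93.5 in RORaf/f after DSS and 123 and 115 in RORaΔIEC after DSS, in CPM, in 4 steps without overlap. All 3 were higher in RORaΔIEC in both settings and higher after DSS in both genotypes. Parp14 was 1.23-fold higher in RORaΔIEC in controls and after DSS, and rose 1.51-fold with DSS in either genotype. Dtx3l was higher in RORaΔIEC by log2 0.38 ± 0.08, adjusted p = 0.00458 in controls and by log2 0.34 ± 0.07, adjusted p = 0.00192 after DSS, and rose 1.43-fold and 1.39-fold with DSS.

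Among the 12 other effectors, 1 was higher in RORaΔIEC controls, a share near the 9.19% of all genes, and 5 after DSS, where 21.3% of all genes were. DESeq2 called 0 and 3 of them. Ifi44, a cytoplasmic antiviral protein, was the one in controls, with 1.65 and 1.40 in the RORaf/f controls, 2.73 and 2.82 in the RORaΔIEC controls, 3.00 and 3.36 in RORaf/f after DSS and 4.60 and 4.86 in RORaΔIEC after DSS, in CPM, from 25 to 85 counts per library. The difference was log2 0.85 ± 0.22, adjusted p = 0.0159 in controls and log2 0.57 ± 0.17, adjusted p = 0.0183 after DSS, and both calls were lost with DESeq2, with length offsets and without some single libraries (any 1 of the 4 control libraries for the first). Bst2 (tetherin), which holds budding virus at the cell surface, gave 6.36 and 6.89 in the RORaf/f controls, 8.45 and 7.77 in the RORaΔIEC controls, 11.1 and 8.95 in RORaf/f after DSS and 13.7 and 17.1 in RORaΔIEC after DSS, in CPM. After DSS it was higher in RORaΔIEC by log2 0.62 ± 0.13, adjusted p = 0.00135, and in controls the difference did not pass (log2 0.29 ± 0.15). Lgals3bp gave 117 and 126 in the RORaf/f controls, 127 and 139 in the RORaΔIEC controls, 162 and 166 in RORaf/f after DSS and 223 and 235 in RORaΔIEC after DSS, in CPM, and the genotypes differed after DSS by log2 0.48 ± 0.05, adjusted p = 5.11e-06. Xaf1, a protein that promotes cell death, gave 6.71 and 6.67 in the RORaf/f controls, 7.12 and 5.88 in the RORaΔIEC controls, 6.91 and 6.30 in RORaf/f after DSS and 9.78 and 9.16 in RORaΔIEC after DSS, in CPM, and only the RORaΔIEC DSS pair stood above the others, by log2 0.52 ± 0.13, adjusted p = 0.00474 against RORaf/f after DSS. Sp100, a component of nuclear bodies, gave 16.3 and 17.4 in the RORaf/f controls, 16.6 and 15.2 in the RORaΔIEC controls, 18.8 and 17.7 in RORaf/f after DSS and 25.1 and 21.9 in RORaΔIEC after DSS, in CPM, with the RORaΔIEC DSS pair highest and the RORaf/f DSS pair above the 4 controls by less. The genotypes differed after DSS by log2 0.36 ± 0.09, adjusted p = 0.00469, a call lost without RORaf/f DSS replicate 2.

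Ifi27, whose human relative is a common blood marker of interferon, went the other way. It gave 38.2 and 37.7 in the RORaf/f controls, 32.3 and 36.5 in the RORaΔIEC controls, 26.9 and 29.3 in RORaf/f after DSS and 20.9 and 23.4 in RORaΔIEC after DSS, in CPM, highest in the RORaf/f controls and lowest in RORaΔIEC after DSS. Ifi27 fell with DSS in RORaf/f (log2 -0.43 ± 0.07, adjusted p = 0.000446) and in RORaΔIEC (log2 -0.64 ± 0.08, adjusted p = 1.79e-05). After DSS it was lower in RORaΔIEC than in RORaf/f (log2 -0.34 ± 0.08, adjusted p = 0.00451), a call lost without RORaf/f DSS replicate 2 (log2 -0.28) and with length offsets. Mx1 gave 7.21 and 7.56 in the RORaf/f controls, 6.42 and 5.63 in the RORaΔIEC controls, 11.4 and 10.9 in RORaf/f after DSS and 10.8 and 10.5 in RORaΔIEC after DSS, in CPM, rising 1.51-fold and 1.76-fold with DSS and not passing between genotypes. Mx2 was counted 13 and 12 times in the RORaf/f controls, 3 and 9 in the RORaΔIEC controls, 20 and 29 in RORaf/f after DSS and 22 and 36 in RORaΔIEC after DSS, and rose with DSS by log2 1.13 ± 0.40, adjusted p = 0.0386 in RORaf/f and by log2 2.13 ± 0.46, adjusted p = 0.00162 in RORaΔIEC. The first of these was lost without any 1 of 4 libraries, with DESeq2 and with length offsets, and the second with length offsets. Rsad2 (viperin), which makes a chain-terminating nucleotide, gave 3.40 and 1.91 in the RORaf/f controls, 2.73 and 2.75 in the RORaΔIEC controls, 5.71 and 4.89 in RORaf/f after DSS and 6.16 and 5.61 in RORaΔIEC after DSS, in CPM. It rose 1.97-fold with DSS in RORaf/f and 2.14-fold in RORaΔIEC (adjusted p = 0.00291 and 0.000983). The genotypes overlapped in controls and after DSS, and neither comparison of genotypes passed. Rtp4 ran from 7.06 to 12.9 CPM and rose 1.47-fold and 1.53-fold with DSS. Cmpk2, which shares a locus with Rsad2 on chromosome 12, ran from 9.13 to 11.8 CPM, and Ifi35 from 19.8 to 26.2. Cmpk2, Ifi35 and Ifih1 were the 3 members that passed in none of the comparisons, and 12 members passed in neither comparison of genotypes. Neither count has a share over all genes beside it.

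The test of whether DSS changed a member by a different amount in the 2 genotypes passed for 7 of 37 members (18.9%), all with the larger change in RORaΔIEC, where 10.8% of all genes passed in that direction. No member passed in the other direction with edgeR or DESeq2, where 10.6% of all genes did, and 2 (Irf7 and Trim25) did at an unadjusted p under 0.05. The 7 were Oas2, Isg15, Zbp1, Xaf1, Sp100, Dhx58 and Lgals3bp. Zbp1 changed by log2 -0.08 ± 0.06 with DSS in RORaf/f and by 0.63 ± 0.05 in RORaΔIEC, a difference of log2 0.71 ± 0.08, adjusted p = 3.77e-05. Isg15 rose by 0.47 ± 0.12 and 1.22 ± 0.10 on the log2 scale, a difference of log2 0.74 ± 0.16, adjusted p = 0.00516. Lgals3bp rose by 0.44 ± 0.05 and 0.78 ± 0.05, a difference of log2 0.35 ± 0.07, adjusted p = 0.00507. These 3 calls held under every alternative run. The call of Oas2 (log2 0.95 ± 0.24, adjusted p = 0.0119) was lost with DESeq2 and without RORaΔIEC control replicate 1. Those of Xaf1, Sp100 and Dhx58 were lost with DESeq2, with length offsets and without several single libraries, so that 4 of 7 remained without RORaf/f control replicate 2, RORaΔIEC control replicate 2 or either RORaf/f DSS library. Of the 11 members higher in RORaΔIEC in both settings, Zbp1 alone passed this test, and the other 10 had values from -0.28 (Ifi44) to 0.36 (Ifit2) on the log2 scale, with standard errors from 0.07 to 0.28. A p that misses the threshold does not show that their DSS changes were alike. The summed neutrophil markers rose far more in RORaΔIEC, as given above, and their part in these 7 differences was not tested.

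**Figure D3:**
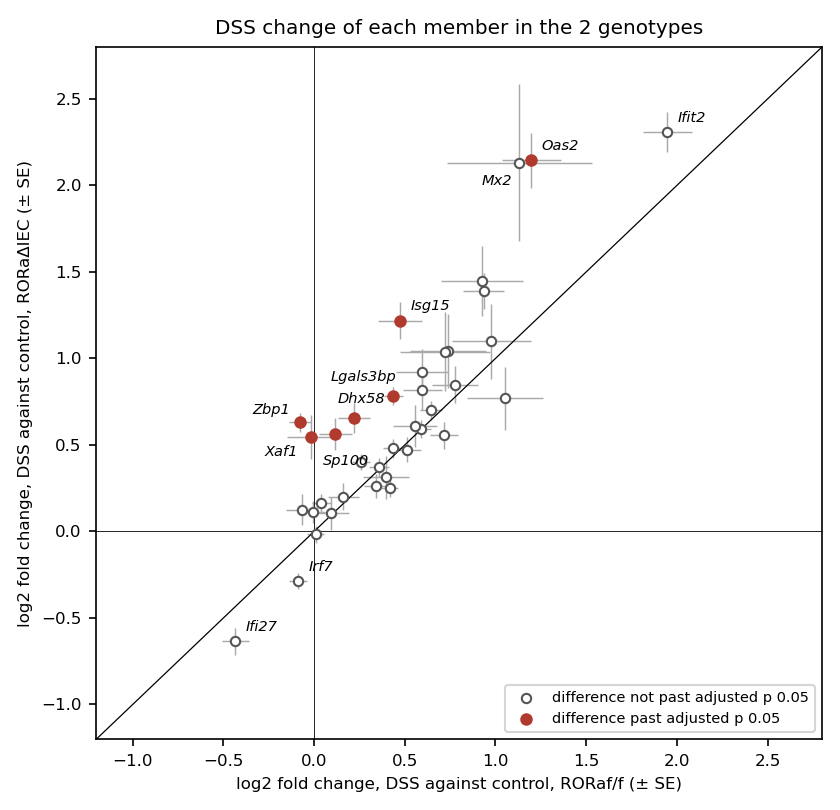
Log2 change with DSS in RORaf/f (horizontal) and RORaΔIEC (vertical) for each of the 37 members, with standard errors as bars and the diagonal marking equal change. The 7 filled genes, whose change differed between genotypes at an adjusted p of 0.05, all lie above the diagonal, and Zbp1 and Xaf1 lie below 0 in RORaf/f.

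Interferon transcripts were at or near 0 counts. Of 21 ligand genes listed, 19 had 0 counts in every library, including every interferon alpha gene and Ifnb1, which allows up to 3 counts, or 0.147 to 0.188 CPM, in a library (counting error only). Ifnl2 had 1 count, in RORaΔIEC after DSS. Ifng, the gamma interferon of T and NK cells, had 0 and 1 counts in the RORaf/f controls, 0 and 0 in the RORaΔIEC controls, 2 and 1 in RORaf/f after DSS and 5 and 5 in RORaΔIEC after DSS. Summed T and NK cell markers were 4.00 and 2.69 CPM in the RORaf/f controls, 2.48 and 2.51 in the RORaΔIEC controls, 5.17 and 6.54 in RORaf/f after DSS and 5.70 and 6.87 in RORaΔIEC after DSS. With DSS in RORaΔIEC, 21.7% of all genes and 3 of the 5 tested markers were higher. Their part in the Ifng counts was not tested. Receptor transcripts were detected in every library, though Ifnar2 had few counts (29 to 88 per library). Ifnar1 gave 35.8 and 33.4 in the RORaf/f controls, 33.7 and 33.5 in the RORaΔIEC controls, 47.4 and 42.6 in RORaf/f after DSS and 41.9 and 38.1 in RORaΔIEC after DSS, in CPM. It rose with DSS in both genotypes, by log2 0.38 ± 0.07, adjusted p = 0.000725 in RORaf/f and by log2 0.25 ± 0.07, adjusted p = 0.0115 in RORaΔIEC. Ifnar2 gave 1.45 and 2.13 in the RORaf/f controls, 2.60 and 2.88 in the RORaΔIEC controls, 2.22 and 3.06 in RORaf/f after DSS and 4.32 and 5.04 in RORaΔIEC after DSS, in CPM, and after DSS was higher in RORaΔIEC by log2 0.82 ± 0.22, adjusted p = 0.00796. Of the 9 receptor and kinase genes, 0 were higher and 2 (Ifngr1 and Ifngr2) lower in RORaΔIEC controls. Over all genes, 9.19% were higher there and 6.22% lower. After DSS, 2 of the 9 (Ifnar2 and Ifngr1) were higher, a share near the 21.3% of all genes, with 1 called by DESeq2. At an unadjusted p under 0.05, 2 of the 9 were higher in controls, and with DESeq2 0 were higher in controls. With DSS in RORaf/f, 3 of the 9 were higher and 1 lower, where 18.9% and 18.3% of all genes were. With DSS in RORaΔIEC, 6 were higher and 0 lower, where 21.7% and 19.8% of all genes were. DESeq2 called 1 and 2 of them higher.

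Irf2, a repressor at the ISRE and no member here, was lower in RORaΔIEC, with log2 -0.34 ± 0.05, adjusted p = 0.000216 in controls and log2 -0.31 ± 0.05, adjusted p = 0.000262 after DSS. Among 16 tested genes of nucleic acid sensing, Mb21d1 (cGAS) alone was higher in RORaΔIEC controls (log2 0.88 ± 0.17, adjusted p = 0.00301), and 4 were higher and 1 lower after DSS, led by Tmem173 (STING) at log2 0.90 ± 0.09, adjusted p = 2.89e-06. Both counts of higher genes are near the shares of all genes (9.19% in controls and 21.3% after DSS). The 1 lower gene stands beside 17.7% of all genes lower after DSS. Negative regulators of the pathway had 2 of 12 higher and 1 lower in RORaΔIEC controls and 6 higher after DSS. Over all genes, 9.19% were higher and 6.22% lower in controls, and 21.3% were higher after DSS. Socs3, the STAT3-driven feedback inhibitor, gave 9.91 and 9.75 in the RORaf/f controls, 9.53 and 9.49 in the RORaΔIEC controls, 20.7 and 16.7 in RORaf/f after DSS and 80.5 and 83.5 in RORaΔIEC after DSS, in CPM, and differed after DSS by log2 2.13 ± 0.07, adjusted p = 8.87e-11.

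A list of 20 genes known mainly for induction by interferon gamma, none of them a member, was counted beside the set. In RORaΔIEC controls 15 of 20 were higher, where 9.19% of all genes were, with a median log2 change of 0.73 against 0.18 for the 37 members. After DSS 20 of 20 were higher (18 with DESeq2), where 21.3% of all genes were, with a median of 1.09 against 0.32. With DSS in RORaf/f the order turned, with 2 of 20 higher and 4 lower and a median of -0.04, against 25 of 37 higher and a median of 0.44 for the members. Over all genes, 18.9% were higher and 18.3% lower. In RORaΔIEC DSS gave 13 higher and 4 lower and a median of 0.28, against 0.59 for the members. There, 21.7% of all genes were higher and 19.8% lower. Summed over the list, the 20 genes stood at 580.2 and 588 CPM in the RORaf/f controls, 862 and 864 in the RORaΔIEC controls, 569.7 and 576 in RORaf/f after DSS and 927 and 979 in RORaΔIEC after DSS. The 37 members summed to 1014 and 1054, 1195 and 1204, 1296 and 1271, and 1607 and 1603 CPM in the same order. Gbp2, a guanylate-binding protein, gave 36.5 and 35.9 in the RORaf/f controls, 103 and 99.3 in the RORaΔIEC controls, 14.2 and 13.9 in RORaf/f after DSS and 39.6 and 40.6 in RORaΔIEC after DSS, in CPM, higher in RORaΔIEC by log2 1.48 ± 0.05, adjusted p = 3.96e-10 in controls and lower after DSS in RORaf/f (log2 -1.36 ± 0.07, adjusted p = 2.39e-09) and in RORaΔIEC (log2 -1.33 ± 0.05, adjusted p = 4.89e-11). Its falls with DSS lay far from the medians of the list. Both lists were chosen with results of these data known, many genes answer to both kinds of interferon, and the difference between the lists was not tested.

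**Figure D4:**
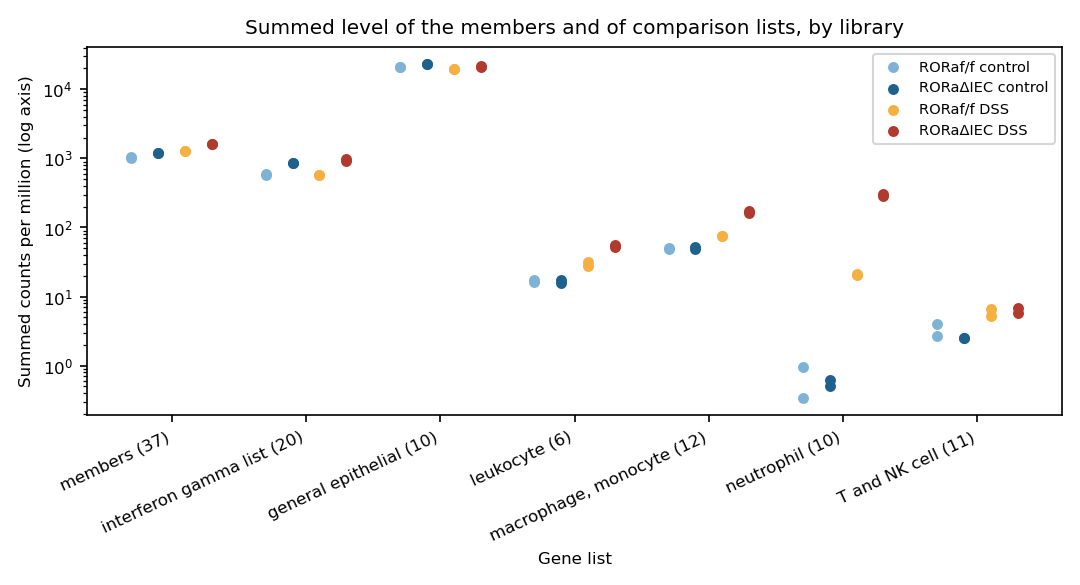
Summed CPM (log axis) of the 37 members, of the interferon gamma list and of 5 lists of cell type markers in each of the 8 libraries, coloured by group, with the number of genes in brackets. The members sum to between 1014 and 1607, lowest in the RORaf/f controls and highest in RORaΔIEC after DSS, while neutrophil markers go from under 1 in controls to 283 and 300.5 in RORaΔIEC after DSS.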

How the data were processed

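RNA of distal colon epithelial cells was sequenced in 8 libraries, 2 in each of 4 groups. Reads were processed with STAR 2.5.3a and RSEM 1.3.0 on mm10, and DESeq2 1.18.1 is named, per the submitters' processing notes. The deposited tables give expected counts per gene, which need not be whole because RSEM divides reads between genes; 14 of the 37 members had fractional values. TPM values and effective lengths are the authors' own, per the file headers; the strand setting is not given in the sources used here.

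Expected counts were rounded and fitted in edgeR 4.0.16 (R 4.3.3; filterByExpr with a minimum count of 10, TMM, quasi-likelihood test) with all 4 groups in 1 model, leaving 4 residual degrees of freedom. P-values were adjusted by Benjamini-Hochberg over all 14991 tested genes, with a threshold of 0.05. Errors of log2 fold changes are standard errors. CPM values are counts scaled to a common library size after TMM. TPM was used only to rank genes by level. The fitting was tested on simulated data.

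The members and lists were chosen with earlier results of these data known. Named with values in every library were members past the threshold in a comparison of genotypes or in the interaction, or changed at least 1.5-fold by DSS, up to 25 per comparison; of pathway and comparison lists, up to 4 per comparison with the smallest p, and every ligand with a count. Alternatives were DESeq2 1.42.0, relative log expression size factors, no filter, offsets for effective length, fits of the 2 groups compared, a replicate block and leaving out each library. Some results on other genes of the pathway are not reported here.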

Additional observations from a re-analysis of the deposited data

Results flagged for a closer look

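In 7 members the change with DSS differed between the genotypes in the interaction test, all larger in RORaΔIEC. On the log2 scale the differences were 0.95 ± 0.24 (SE) for Oas2, 0.74 ± 0.16 for Isg15, 0.71 ± 0.08 for Zbp1, 0.56 ± 0.18 for Xaf1, 0.445 ± 0.13 for Sp100, 0.44 ± 0.13 for Dhx58 and 0.35 ± 0.07 for Lgals3bp. For Zbp1, the RORaf/f libraries after DSS (27.3 and 27.0 CPM) were below both RORaf/f controls (28.0 and 29.3 CPM) while both RORaΔIEC libraries after DSS (55.1 and 56.0 CPM) were above their controls (35.5 and 36.2 CPM).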

How the results depend on the processing

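Of 1393 values for the 100 calls of members under 14 alternatives, 1282 kept their direction and stayed past the threshold, 111 kept their direction and lost it, and 0 turned. The count of 13 members higher in RORaΔIEC controls became 8 with length offsets and 6 to 14 with 1 library left out. The 7 members with a larger DSS change in RORaΔIEC became 3 with DESeq2, 4 with length offsets and 4 to 8 with 1 library left out. Ifi27, the 1 member lower in RORaΔIEC after DSS, was not called with length offsets (count 0), and leave-one-out fits gave 0 to 1. Members with a smaller DSS change in RORaΔIEC numbered 0, and 0 to 1 with 1 library left out (Trim25 without RORaΔIEC DSS replicate 1 and Irf7 without RORaΔIEC DSS replicate 2). In 3 residual degrees of freedom, the replicate block left every count as reported: 13, 22, 25, 29 and 7 members higher. Deviations of same-numbered libraries from their group means showed little correlation (from -0.112 to 0.0772). Part of these deviations is counting error, so the values cannot settle whether the numbers pair the samples. A crossed pairing, chosen after seeing the data, gave 24 members higher and 1 lower after DSS in RORaf/f. Over all genes, DESeq2 called 718 higher and 464 lower in RORaΔIEC controls against 1378 and 932 with edgeR, 825 and 798 against 1613 and 1595 in the interaction, and length offsets gave 786 and 504, and 882 and 912. The cause of these shifts was not tested. With 2 libraries a group, leaving 1 out assumes that the lone library varies like the other groups. Depth limits, among others, Mx2, Ifit3b, Usp18, Ifi44, Oas2, Rsad2, Ifnar2 and Rora, which have few counts in some libraries. The lowest count in a library was 22.57 for Ifit3b, 33 for Oas2 and 34 for Rsad2.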
